A study of Homo sapiens with 24 samples.

Results

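The human genes for heat shock proteins and J-domain proteins were followed across 3 acute myeloid leukaemia lines and 1 lung carcinoma line treated with BET bromodomain inhibitors. The members were all genes whose symbol begins with HSPA, HSPB, HSPD, HSPE, HSPH, HSP90, DNAJA, DNAJB or DNAJC, without 5 pseudogenes and 3 antisense genes, which gave 77 of the 30373 genes listed. They comprised 14 HSPA, 11 HSPB, 1 HSPD, 2 HSPE, 1 HSPH and 3 HSP90 genes, with 4 DNAJA, 12 DNAJB and 29 DNAJC genes. Among these, HSPBP1, HSPBAP1 and HSPB11 share only the letters and are not chaperones of these families, and 3 are readthrough transcripts (HSPE1-MOB4, HSPB2-C11orf52 and DNAJC25-GNG10). Polyadenylated RNA was sequenced from SKM-1, MV-4-11 and Kasumi-1 (acute myeloid leukaemia) and from NCI-H1299 (non-small cell lung carcinoma), all grown in RPMI-1640 medium with 10% FBS. Each line received DMSO, the solvent, or ABBV-075 at 100 nM or ABBV-744 at 200 nM for 24 h, with 2 libraries in each of the 12 groups. ABBV-075 (mivebresib) binds both bromodomains of the BET proteins, and ABBV-744 is selective for the second of them, BD2. The doses differed, so the compounds are compared only at these doses, and lung carcinoma is represented by 1 line.

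Molecular chaperones bind unfolded stretches of other proteins and help them fold, assemble or reach a membrane. HSP70 proteins do this in cycles of ATP hydrolysis that J-domain proteins start and nucleotide exchange factors end, and many clients then pass to HSP90. Separate sets work in the cytosol, in the endoplasmic reticulum (ER) and in mitochondria, and heat shock factor 1 (HSF1), the unfolded protein response of the ER and growth-related factors such as MYC are known regulators of different sets. Leukaemia cells are known to hold high levels of several of these proteins.

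Values are FPKM (fragments per kilobase of transcript, scaled to the sequenced total), so levels can be compared between genes per length, and a change is a difference on the log2(FPKM + 1) scale, which understates changes of low genes. A gene was called when limma's adjusted p, over all genes tested in that comparison, was under 0.05. The labels name no cultures, so p-values measure the spread between libraries that may be technical replicates, and an exact permutation test of 2 libraries against 2 could not go below p = 0.333. Of 5 leukaemia markers, PTPRC, CD33 and SPI1 were at 1.70 FPKM or more in every leukaemia library and at 0.286 or less in NCI-H1299, LYZ was at 3.39 or more against at most 1.55, and MPO overlapped (2.18 to 5.23 in MV-4-11, 0.955 to 3.46 in NCI-H1299). Of 5 adherent cell markers, KRT8, KRT18, YAP1 and CAV1 were at 42.8 or more in NCI-H1299 and at 7.19 or less in leukaemia libraries, while EPCAM ran from 7.96 to 70.7 in SKM-1 and Kasumi-1 and reached 0.206 in NCI-H1299. HEXIM1, a gene known to rise under BET inhibition, rose in all 4 lines with ABBV-075 (1.93 to 2.97 on the log2 scale) and with ABBV-744 (0.61 to 1.01). The SKM-1 DMSO libraries stood apart: their log2 values for the members differed with an SD of 0.751, against 0.0913 to 0.467 in the other groups, and the mitochondrially encoded share of FPKM was 9.13% in replicate 1 and 22.3% in replicate 2. The part of that difference in any SKM-1 result was not tested, and values without each of these libraries are given for some members. The fit holds 1 spread per gene for all 12 groups, so the difference also enters the SE of the other lines. In bulk RNA, fewer cells of a kind and less RNA per cell cannot be told apart.

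In DMSO the members together made up from 0.549% (MV-4-11) to 1.69% (NCI-H1299) of all FPKM, and a few cytosolic genes carried most of it. HSP90AB1, the constitutive HSP90, led in SKM-1 (mean 1839 FPKM) and MV-4-11 (503). HSPA8, the constitutive HSP70, led in Kasumi-1 (1317), and HSP90AA1, the stress-inducible HSP90, led in NCI-H1299 (2586). HSPA8 and HSP90AB1 were among the 3 highest members in every line. At the other end, 14 members stayed under 1 FPKM in all 24 libraries, HSPB3 and DNAJC25-GNG10 were listed at 0 throughout, and 48 members were at 1 FPKM or more in every library. The small heat shock genes were nearly silent apart from HSPB1. HSPA6, a strictly heat-induced HSP70, reached at most 0.985 FPKM. DNAJC15, a mitochondrial J-domain gene, was at 13.1 to 22.9 FPKM in MV-4-11 and at no more than 0.418 in the other lines.

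**Figure D1:**
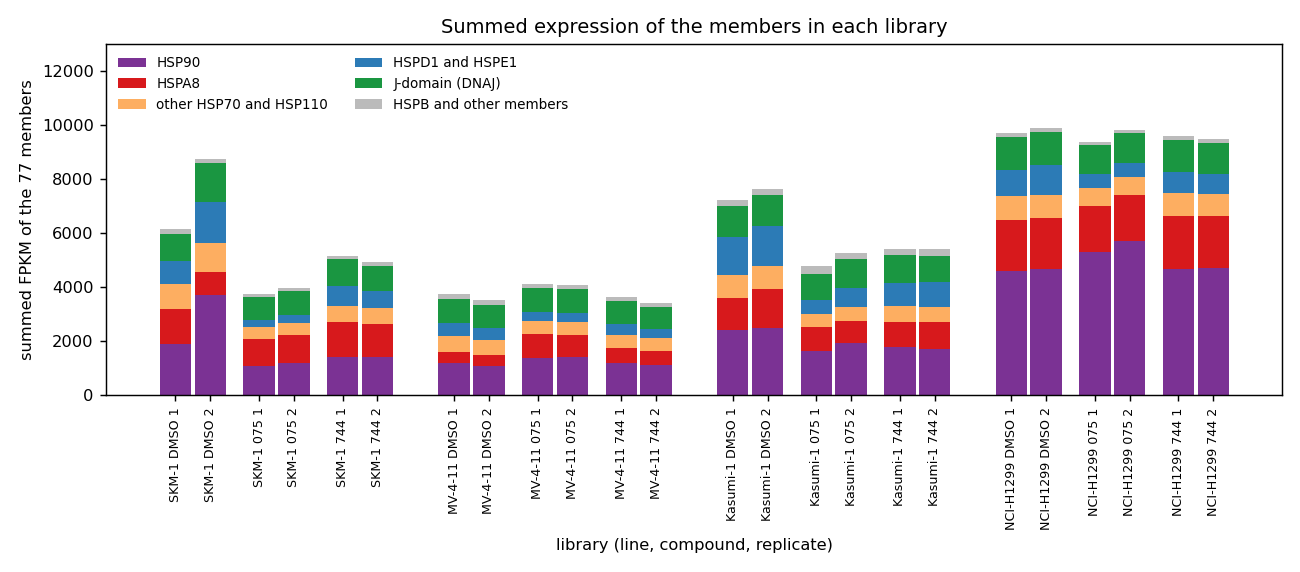
Stacked bars give the summed FPKM of the 77 members in each of the 24 libraries (vertical axis from 0), split into HSP90 genes, HSPA8, other HSP70 and HSP110 genes, HSPD1 with HSPE1, J-domain genes and the rest. NCI-H1299 libraries lie between 9365 and 9881, and the bars of SKM-1 and Kasumi-1 are shorter with either compound than with DMSO.

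Summed over the members, expression was lower with ABBV-075 in SKM-1 and Kasumi-1 and not in MV-4-11. The sum was 6138 and 8728 FPKM in the SKM-1 DMSO libraries and 3721 and 3955 with ABBV-075. In Kasumi-1 it was 7236 and 7634 with DMSO and 4789 and 5246 with ABBV-075. In MV-4-11 it was 3741 and 3511 with DMSO and 4088 and 4056 with ABBV-075. The groups did not overlap in any of these 3 lines, with MV-4-11 alone higher under ABBV-075.

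Without compound, cytosolic heat shock genes were lower in the mean of the leukaemia lines than in NCI-H1299, while ER members differed in both directions. Of 52 members tested, 24 were lower and 8 higher in the mean of the 3 leukaemia lines, where 35.9% of all genes tested were lower and 29.3% higher. A list of 14 genes, called heat-inducible here, includes the mitochondrial chaperonin pair HSPD1 and HSPE1 and the constitutive HSPA8 and HSP90AB1. Of its 13 genes tested, 10 were lower and 0 higher. Of a partial list of 10 ER members, 4 were higher and 2 lower. HSP90AA1 showed a difference of -2.27 ± 0.25 (SE; limma adjusted p = 7.75e-07), and DNAJB6, a J-domain protein that suppresses aggregation, one of -1.81 ± 0.13 (4.82e-09). The SKM-1 mean went the other way for some called genes. It was above that of NCI-H1299 for HSP90AB1 (1839 against 1747 FPKM), DNAJA1 (250.01 against 243.6), HSPH1 (138.5 against 93.9) and HSPA4L (22.1 against 16.2). In SKM-1 DMSO replicate 1 alone, HSP90AB1 and DNAJA1 were below the NCI-H1299 mean, and HSPH1, at 95.3 FPKM, was close to it. HSPA8 differed by -1.20 and DNAJB1, the main cytosolic partner of HSP70, by -1.14. In the other direction DNAJC3, an ER cochaperone of the unfolded protein response, was higher by 1.76 ± 0.15 (5.26e-08), at 10.5 to 18.9 FPKM in the leukaemia DMSO libraries and 3.05 and 3.10 in NCI-H1299. HSPBAP1 (0.82), DNAJC7 (0.75), a cochaperone that binds both HSP70 and HSP90, and HSPA5 (0.65), the ER HSP70 also called BiP, were higher as well. With 1 lung line, line and tissue cannot be told apart.

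With ABBV-075 members changed in every line, in both directions, as did many of all genes tested. In SKM-1, 27 of 58 tested members fell and 15 rose, where 29.2% of all genes tested fell and 32% rose. In Kasumi-1, 23 of 55 fell and 10 rose, beside 32.6% and 24.7% of all genes. In NCI-H1299, 20 of 58 fell and 10 rose, beside 26.5% and 20.6%. MV-4-11 differed, with 16 of 57 higher and 12 lower beside 20.3% and 22.1%. The median change of the members was -0.35 in SKM-1, -0.24 in Kasumi-1, -0.15 in NCI-H1299 and 0.03 in MV-4-11, against 0.05, -0.09, -0.06 and -0.01 over all genes tested. Averaged over the 3 leukaemia lines, 21 of 54 members fell and 13 rose, beside 34.4% and 33.5% of all genes. The counts moved by more than 1.5 times without single libraries. In MV-4-11 the count of risen members was 9 without ABBV-075 replicate 1 and 10 without ABBV-075 replicate 2 or DMSO replicate 2. In Kasumi-1, 6 rose without ABBV-075 replicate 2 and 15 fell without DMSO replicate 2. In NCI-H1299, 6 rose without DMSO replicate 1 or ABBV-075 replicate 1 and 4 without ABBV-075 replicate 2. Each of these fits also held 1 library fewer.

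**Figure D2:**
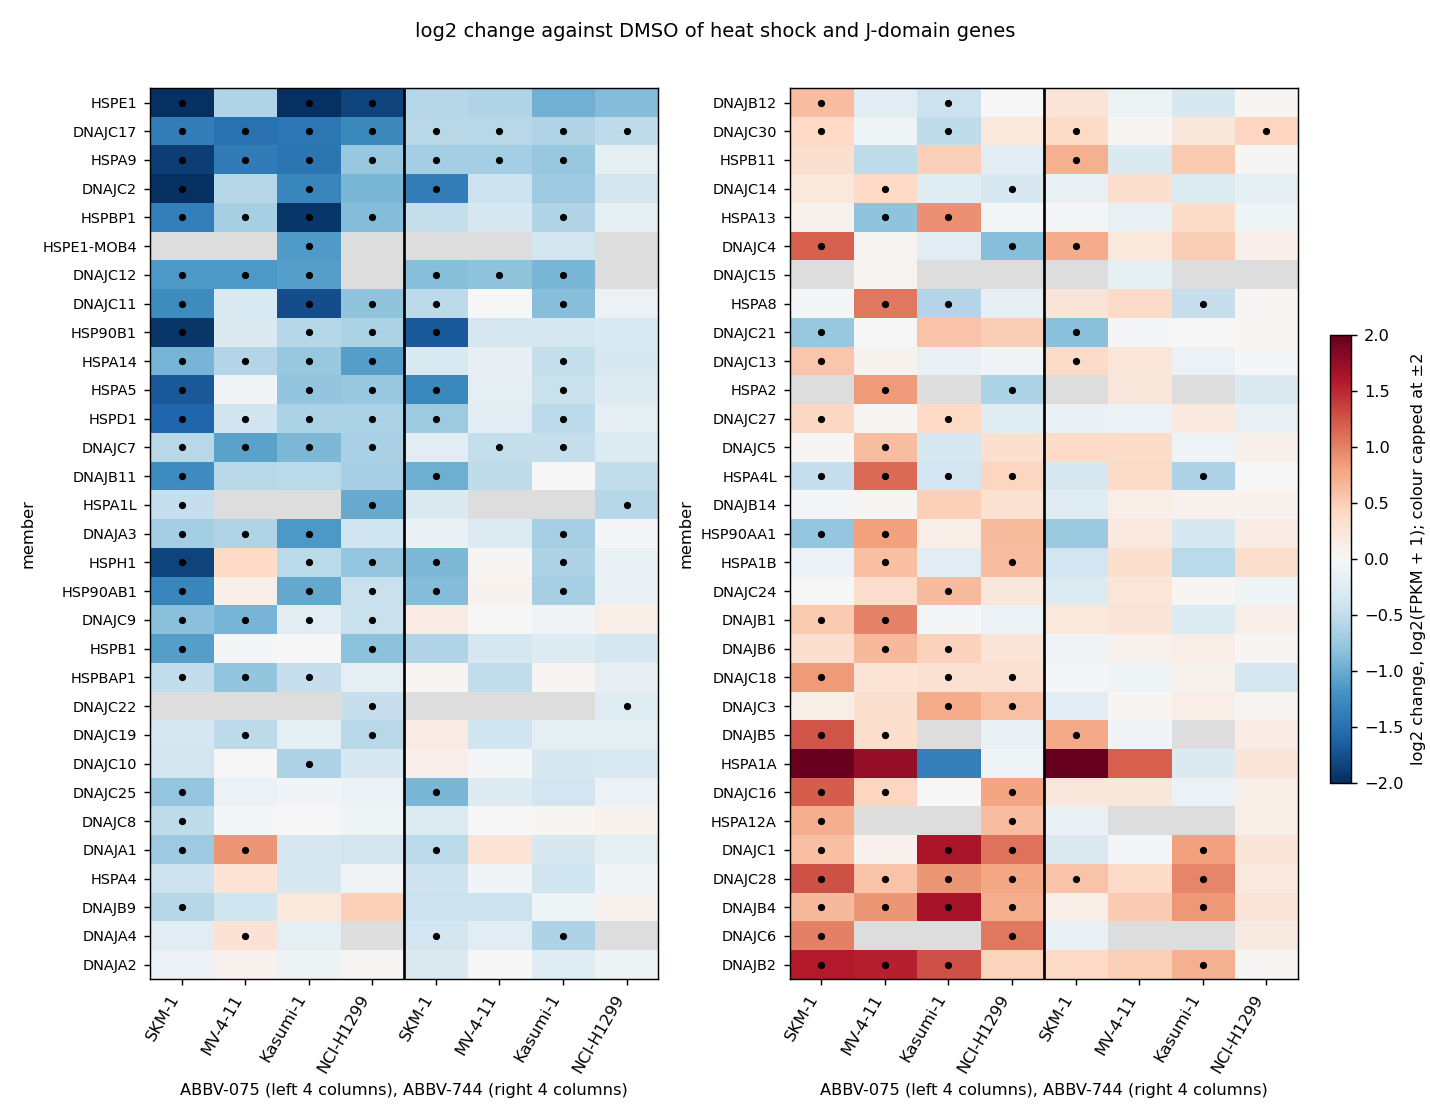
Members tested in at least 1 line run down the vertical axis, ordered by its mean change with ABBV-075, and lines run across, with ABBV-075 on the left and ABBV-744 on the right of the black line. Colour gives the log2 change against DMSO, capped at 2 in either direction, dots mark limma adjusted p under 0.05, and grey cells were not tested. HSPE1, HSPA9 and DNAJC17 are among the lowest members and DNAJB2 and DNAJB4 among the highest.

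With ABBV-075, 7 members fell in each of the 4 lines (HSPA9, HSPD1, HSPA14, HSPBP1, DNAJC7, DNAJC9 and DNAJC17) and 2 rose in each (DNAJB4 and DNAJC28). On values rescaled by median-of-ratios factors, 3 of these calls were lost: HSPD1 in MV-4-11 (limma adjusted p = 0.0541), DNAJC9 in Kasumi-1 (0.329) and DNAJB4 in SKM-1 (0.0843). The 4 lines shared no libraries. DNAJC28 had DMSO means under the 1 FPKM minimum in SKM-1 (0.73), MV-4-11 (0.64) and Kasumi-1 (0.90). It was tested there through treated libraries, so its rises in these lines are not independent of the filter. The share of all genes called in 3 or 4 lines was not computed, so these counts have no background beside them. In single lines, 32%, 20.3%, 24.7% and 20.6% of all genes tested rose in SKM-1, MV-4-11, Kasumi-1 and NCI-H1299. In the same order 29.2%, 22.1%, 32.6% and 26.5% fell. A further 9 members fell in 3 lines, among them the chaperonin partner HSPE1, the ER chaperones HSPA5 and HSP90B1, the cytosolic HSP90AB1 and HSPH1, and 4 rose in 3 lines (DNAJB2, DNAJC1, DNAJC16 and DNAJC18). Of the DNAJB genes tested, 5 of 9 rose and 2 fell in SKM-1, 5 of 9 rose and 0 fell in MV-4-11, 3 of 8 rose and 1 fell in Kasumi-1, and 1 of 9 rose and 0 fell in NCI-H1299. DNAJC genes were called in both directions in about equal number, for example 9 higher and 9 lower of 24 in SKM-1.

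Several cytosolic heat shock genes rose in MV-4-11 with ABBV-075, and fewer did in the other lines. Of 13 genes tested from the heat-inducible list, 7 rose and 1 fell in MV-4-11 with ABBV-075 (median 0.83). By contrast, 2 rose and 8 fell in SKM-1 (median -0.73), 1 and 6 in Kasumi-1 (-0.39), and 3 and 5 in NCI-H1299 (-0.16). These counts include the constitutive HSPA8 and HSP90AB1. Over all genes tested, 20.3% rose and 22.1% fell in MV-4-11, 32% and 29.2% in SKM-1, 24.7% and 32.6% in Kasumi-1, and 20.6% and 26.5% in NCI-H1299. Without the mitochondrial HSPD1 and HSPE1, 11 genes were tested, of which 7 rose and 0 fell in MV-4-11, 2 and 6 in SKM-1, 1 and 4 in Kasumi-1, and 3 and 3 in NCI-H1299. The list as a whole was not compared between lines. Inverted repeats of GAA make up the heat shock element that HSF1 is known to bind, searched here as GAANNTTCNNGAA on both strands. Within 250 bases before and 50 after any RefSeq start of the gene, 7 of the 68 members with a promoter held this motif (10.3%: DNAJA1, DNAJB6, HSP90AA1, HSP90AB1, HSPA6, HSPA8 and HSPD1), compared with 0.608% of 27305 genes. More than 1 window was searched for 22.1% of these members and 19% of these genes, and the HSPD1 match lies before the start that is farther from HSPE1. Most genes of the heat-inducible list, DNAJB1 and HSPA4L among them, had no match in this window. Stretches around the matches of 4 genes described next, from RefSeq promoters on GRCh38.p14, are printed so that the motif, in capitals, can be read beside their expression.
HSPA8, chr11:123062159-123062211, minus strand: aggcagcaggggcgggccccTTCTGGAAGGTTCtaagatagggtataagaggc
HSP90AA1, chr14:102087100-102087152, minus strand: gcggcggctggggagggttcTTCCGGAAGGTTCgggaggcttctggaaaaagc
HSP90AB1, chr6:44247758-44247863, plus strand: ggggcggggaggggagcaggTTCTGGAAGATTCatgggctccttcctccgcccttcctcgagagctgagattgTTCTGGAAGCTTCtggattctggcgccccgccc
DNAJB6, chr7:157336853-157336905, plus strand: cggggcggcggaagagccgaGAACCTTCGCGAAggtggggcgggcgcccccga
All lie before the start, HSP90AB1 holds 2 matches in 106 bases, and HSPA8 has a further match that is not printed. A match describes these letters only, and no binding was measured.

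HSPA8, the constitutive cytosolic HSP70, rose in MV-4-11 and fell in Kasumi-1 with ABBV-075. It was at 427 and 396 FPKM in MV-4-11 DMSO and at 865 and 844 with ABBV-075, a change of 1.05 ± 0.16 (SE; limma adjusted p = 6.04e-05). In Kasumi-1 it was at 1191 and 1444 with DMSO and 891 and 847 with ABBV-075, a change of -0.59 ± 0.16 (0.00443). Neither pair of groups overlapped, and the Kasumi-1 call was lost without DMSO replicate 2 (adjusted p = 0.0601). In SKM-1 the DMSO libraries, at 1302 and 841, lay on both sides of the ABBV-075 values of 1017 and 1049.7. The SKM-1 change was -0.02 (0.929), becoming 0.30 (0.0254) without DMSO replicate 1 and -0.33 (0.0158) without DMSO replicate 2, so no direction can be given. The response in MV-4-11 exceeded that in Kasumi-1 by 1.65 ± 0.22 (9.05e-05). In NCI-H1299 the change was -0.16, from 1912 and 1900.4 to 1701 and 1704.

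Some of the genes that work with HSP70 rose in MV-4-11 (DNAJB1, DNAJA1 and HSPA4L), while DNAJC7 (-1.07) and HSPBP1 (-0.66) fell and HSPH1 (0.40), HSPA4 (0.28) and DNAJA2 (0.09) were not called. DNAJB1, which delivers clients to HSP70, was at 36.7 and 37.9 FPKM with DMSO and at 72.6 and 77.5 with ABBV-075 (0.99 ± 0.13, limma adjusted p = 2.14e-05). DNAJA1, a farnesylated partner of HSP70, went from 82.2 and 73.8 to 151 and 138 (0.88 ± 0.17, 4.77e-04). HSPA4L, an HSP110 nucleotide exchange factor, went from 2.41 and 2.08 to 6.25 and 6.02 (1.14 ± 0.12, 1.89e-06). In all 3 genes the MV-4-11 groups were well apart, and the calls held without any 1 library of the comparison. The other lines differed. DNAJB1 also rose in SKM-1 (0.52 ± 0.13), from 49.7 and 35.04 to 62.0 and 58.6, and was at -0.02 in Kasumi-1 and -0.12 in NCI-H1299. DNAJA1 fell in SKM-1 (-0.73 ± 0.17), from 189 and 311 to 139 and 153. HSPA4L fell in SKM-1 (-0.46 ± 0.12) and Kasumi-1 (-0.39 ± 0.12) and rose in NCI-H1299 (0.43 ± 0.12), but its calls were lost in SKM-1 without ABBV-075 replicate 1 (adjusted p = 0.0643), in Kasumi-1 without DMSO replicate 2 or ABBV-075 replicate 1 (up to 0.108) and in NCI-H1299 without ABBV-075 replicate 2 (0.0534). DNAJB6 rose in MV-4-11 (0.64 ± 0.16) and Kasumi-1 (0.45 ± 0.16), the latter lost without either DMSO library or ABBV-075 replicate 2 (up to 0.152), and was at 153 and 161 FPKM in NCI-H1299 DMSO against 24.0 to 61.2 in the leukaemia DMSO libraries.

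HSPA1A and HSPA1B, the stress-inducible HSP70 pair, are uncertain one by one. Their transcripts share 69.9% and 68.8% of their 100-base windows (GENCODE v29), so the counting may not assign their reads to the right gene. In SKM-1 DMSO replicate 2, for instance, HSPA1A was listed at 1.33 FPKM and HSPA1B at 67.4, whereas replicate 1 had 37.6 and 41.0. HSPA1A was called in no line against DMSO. HSPA1B was called higher with ABBV-075 in MV-4-11 (0.60) and NCI-H1299 (0.62), and these calls were lost in NCI-H1299 without any 1 library (adjusted p 0.0954 to 0.154) and in MV-4-11 without DMSO replicate 1 or either ABBV-075 library (up to 0.311). Summed, the pair was at 16.3 and 20.1 FPKM in MV-4-11 DMSO and 36.9 and 34.7 with ABBV-075, a change of 0.94 ± 0.26 (limma adjusted p = 0.00752). In SKM-1 (0.20), Kasumi-1 (-0.55) and NCI-H1299 (0.35) the sum's change was not called. The sum was also lower in leukaemia than in NCI-H1299 DMSO libraries, by -1.96 ± 0.21 (6.06e-07). The sum was chosen after seeing the data.

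**Figure D3:**
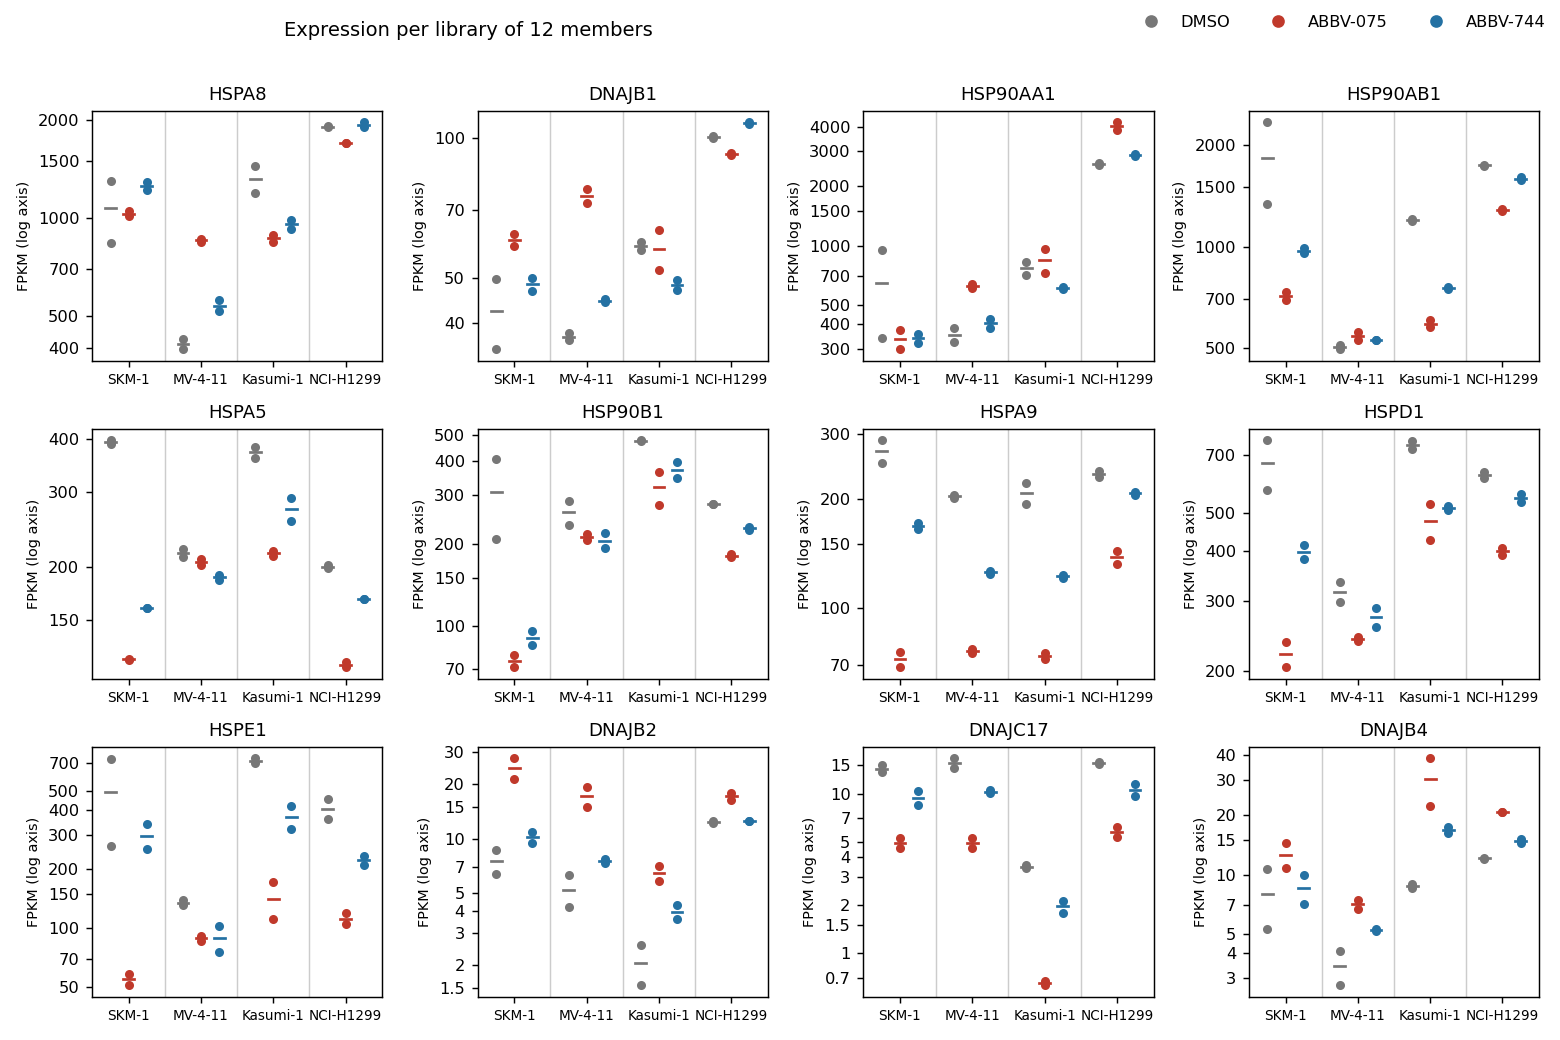
Dots are single libraries and bars the mean of 2 libraries, in FPKM on a log axis, for 12 members in 4 lines with DMSO (grey), ABBV-075 (red) and ABBV-744 (blue). The ABBV-075 libraries of HSPA8 and DNAJB1 lie above DMSO in MV-4-11, those of HSPA9 and DNAJC17 lie below DMSO in every line, and the grey SKM-1 dots of HSP90AA1 and HSPE1 are far apart.

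The HSP90 paralogues responded unequally. HSP90AB1 fell in SKM-1 with ABBV-075, from 1335 and 2342 FPKM to 695 and 733 (-1.31 ± 0.17, limma adjusted p = 8.26e-06). It fell in Kasumi-1, from 1206 and 1195 to 605 and 575 (-1.02 ± 0.17, 1.13e-04), and was at 495 and 511 against 529 and 557 in MV-4-11 (0.11). Both calls held without any 1 library and the groups did not overlap. In NCI-H1299 it went from 1753 and 1739.7 to 1279 and 1297 (-0.44 ± 0.17, 0.047), a call lost without any 1 library (0.13 to 0.147) and on values rescaled by median-of-ratios factors (0.106). HSP90AA1 was at 2546 and 2626 FPKM in NCI-H1299 DMSO and 3838 and 4208 with ABBV-075, without overlap, but its change of 0.64 ± 0.30 was not called (0.0964). In MV-4-11 it went from 382 and 326 to 642 and 612 (0.83 ± 0.30, 0.0379), and the call was lost without any 1 library (0.0732 to 0.176). In SKM-1 its change of -0.77 (0.0374) rested on DMSO replicate 2, with 949 FPKM against 343 in replicate 1, and was -0.04 without it; the call was also lost without either ABBV-075 library. HSPH1, an HSP110 exchange factor, fell from 95.3 and 182 to 32.9 and 39.0 in SKM-1 (-1.85 ± 0.22, 2.48e-06). It also fell in NCI-H1299 (-0.77 ± 0.22), from 91.7 and 96.1 to 53.7 and 55.9, a call lost without DMSO replicate 2 or ABBV-075 replicate 1 (up to 0.0521). In Kasumi-1 its call (-0.53, 0.0472) was lost without either DMSO library or ABBV-075 replicate 1 (up to 0.26).

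Within a library the ratio of HSP90AA1 to HSP90AB1 was higher with ABBV-075 than with DMSO in all 4 lines. In NCI-H1299 it was 1.45 and 1.51 with DMSO and 3.0 and 3.24 with ABBV-075. In Kasumi-1 it was 0.592 and 0.690 with DMSO and 1.21 and 1.68 with ABBV-075. MV-4-11 went from 0.772 and 0.637 to 1.21 and 1.10. The ratio thus crossed 1 in MV-4-11 and Kasumi-1. In SKM-1 the values were closer, at 0.257 and 0.405 against 0.431 and 0.508. With ABBV-744 the ratio was above both DMSO libraries in Kasumi-1 (0.832 and 0.797) and NCI-H1299 (1.77 and 1.84) and overlapped DMSO in SKM-1 (0.375 and 0.327) and MV-4-11 (0.810 and 0.723). A ratio shows unequal change and does not say which gene moved, and it was not tested.

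**Figure D4:**
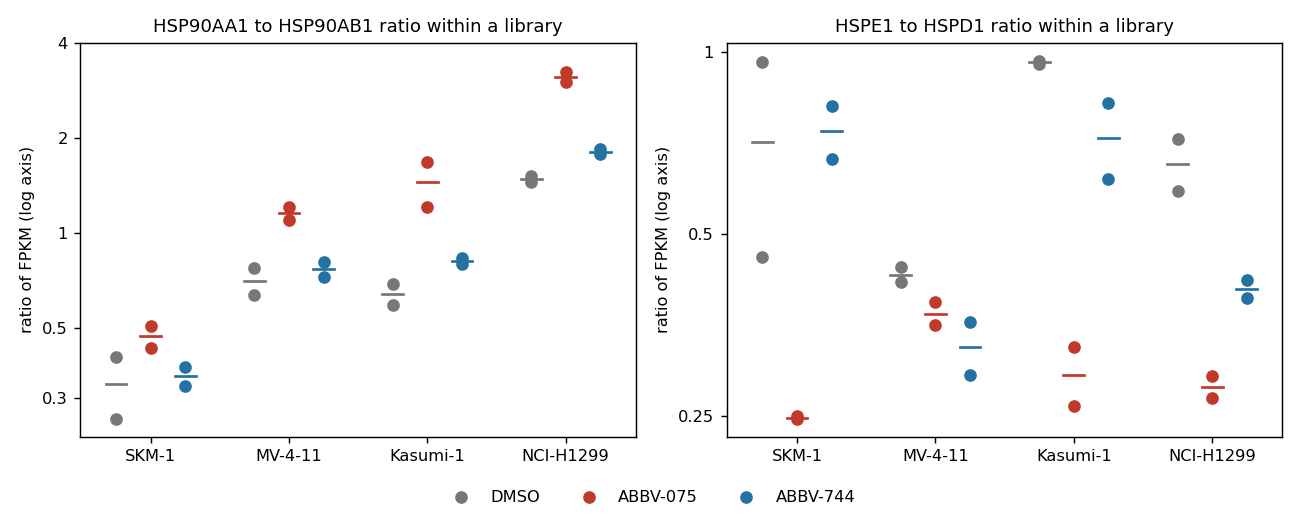
Dots give, for each library, the FPKM ratio of HSP90AA1 to HSP90AB1 (left) and of HSPE1 to HSPD1 (right) on log axes, with bars at the mean of 2 libraries. In all 4 lines the red ABBV-075 dots lie above the grey DMSO dots on the left and below them on the right.

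The main ER chaperones HSPA5 and HSP90B1 fell in SKM-1, Kasumi-1 and NCI-H1299, and were not called in MV-4-11. HSPA5 (BiP), the HSP70 of the ER, was at 396 and 388 FPKM in SKM-1 DMSO and 122 and 121 with ABBV-075 (-1.69 ± 0.09, limma adjusted p = 3.61e-10). In Kasumi-1 it went from 382 and 360.0 to 212 and 218 (-0.78 ± 0.09, 2.56e-06), and in NCI-H1299 from 199 and 202 to 116 and 119 (-0.76 ± 0.09, 5.21e-06). In MV-4-11 it was at 221 and 211 with DMSO and 209 and 202 with ABBV-075 (-0.07, 95% interval -0.27 to 0.12). The calls in the 3 lines held without any 1 library, and the MV-4-11 response of HSPA5 differed from those of SKM-1 (-1.61 for SKM-1 minus MV-4-11, 3.32e-07) and Kasumi-1 (0.71 for MV-4-11 minus Kasumi-1, 9.31e-04). HSP90B1, the ER HSP90 also called GRP94, fell in SKM-1 from 208 and 409 to 70.8 and 78.8 (-1.95 ± 0.22, 1.68e-06). Its falls in Kasumi-1 (-0.58 ± 0.22, from 476 and 473 to 277 and 364) and NCI-H1299 (-0.63 ± 0.22, from 280.1 and 280.1 to 179 and 183) lost their calls without either DMSO library or ABBV-075 replicate 1 in Kasumi-1 (adjusted p up to 0.222), without any 1 library in NCI-H1299 (0.0907 to 0.109), and on rescaled values in both (0.104 and 0.0624). DNAJB11, a J-domain partner of HSPA5, fell in SKM-1 (-1.25 ± 0.27), from 44.5 and 102 to 26.9 and 28.96, and its change in the other 3 lines lay between -0.67 and -0.54 without a call.

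HSPA5 and HSP90B1 were the 2 members whose promoter held the ER stress element, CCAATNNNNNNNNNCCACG on both strands, which is read by factors of the unfolded protein response (2.94% of members and 0.0916% of genes). Their upstream stretches are shown because both genes fell in the same 3 lines, with the motif in capitals.
HSPA5, chr9:125241371-125241429, minus strand: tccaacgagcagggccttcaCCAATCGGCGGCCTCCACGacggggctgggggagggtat
HSP90B1, chr12:103930196-103930359, plus strand: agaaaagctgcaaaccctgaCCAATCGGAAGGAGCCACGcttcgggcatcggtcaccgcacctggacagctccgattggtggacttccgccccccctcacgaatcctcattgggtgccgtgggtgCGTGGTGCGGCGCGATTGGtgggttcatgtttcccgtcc
HSP90B1 holds 2 matches, 1 on each strand. XBP1, a transcription factor of that response, fell in SKM-1 (-1.76), Kasumi-1 (-0.98) and NCI-H1299 (-0.95) and was at 0.11 in MV-4-11. ATF6, another ER stress gene followed here, rose in SKM-1 (0.36), was at 0.07 in Kasumi-1 and fell in MV-4-11 (-0.26). In NCI-H1299 the ATF6 mean was 8.76 FPKM with ABBV-075 and 5.97 with ABBV-744, and its change against DMSO is not given here. The part of either gene in the changes of HSPA5 and HSP90B1 was not tested.

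The list of ER members used here is partial and leaves out DNAJB12, an ER membrane J-domain gene. Of the 10 members on it, 2 rose and 5 fell in SKM-1, beside 32% and 29.2% of all genes tested. In Kasumi-1 3 rose and 3 fell, beside 24.7% and 32.6%, in NCI-H1299 3 and 2, beside 20.6% and 26.5%, and in MV-4-11 1 and 1, beside 20.3% and 22.1%. DNAJC1, an ER membrane J-domain protein, went from 14.0 and 12.98 FPKM to 40.7 and 47.3 in Kasumi-1 (1.63 ± 0.23, limma adjusted p = 2.15e-05) and from 6.80 and 5.92 to 14.0 and 15.1 in NCI-H1299 (1.08 ± 0.23, 0.00122). DNAJC16 rose in SKM-1, from 3.58 and 4.08 to 8.74 and 11.8 (1.21 ± 0.14, 1.59e-06), and in NCI-H1299, from 4.93 and 5.46 to 9.71 and 9.75 (0.79 ± 0.14, 2.00e-04). Both genes were near 0 change in 1 line each, DNAJC1 in MV-4-11 (0.08) and DNAJC16 in Kasumi-1 (0.00). The call of DNAJC1 in SKM-1 (0.60) was lost without DMSO replicate 1 (0.05) or ABBV-075 replicate 2, and that of DNAJC16 in MV-4-11 (0.43) without DMSO replicate 2 or ABBV-075 replicate 1 (adjusted p up to 0.214). DNAJC3 rose in Kasumi-1 (0.74 ± 0.18), from 11.8 and 10.6 to 16.9 and 21.9, and in NCI-H1299 (0.59 ± 0.18), where the call was lost without either DMSO library or ABBV-075 replicate 2 (up to 0.104). HSPA13, a microsomal HSP70, fell in MV-4-11 from 26.5 and 22.7 to 15.1 and 12.2 (-0.81 ± 0.21) and rose in Kasumi-1 from 13.4 and 16.7 to 23.6 and 35.99 (0.92 ± 0.21). The MV-4-11 call was lost without DMSO replicate 1 or ABBV-075 replicate 2 (up to 0.0628). DNAJB9, a repressor of the ER stress sensor IRE1, was called only in SKM-1 (-0.56 ± 0.19), from 7.87 and 10.5 to 5.404 and 6.30, and not without DMSO replicate 2 or ABBV-075 replicate 1 (up to 0.161).

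**Figure D5:**
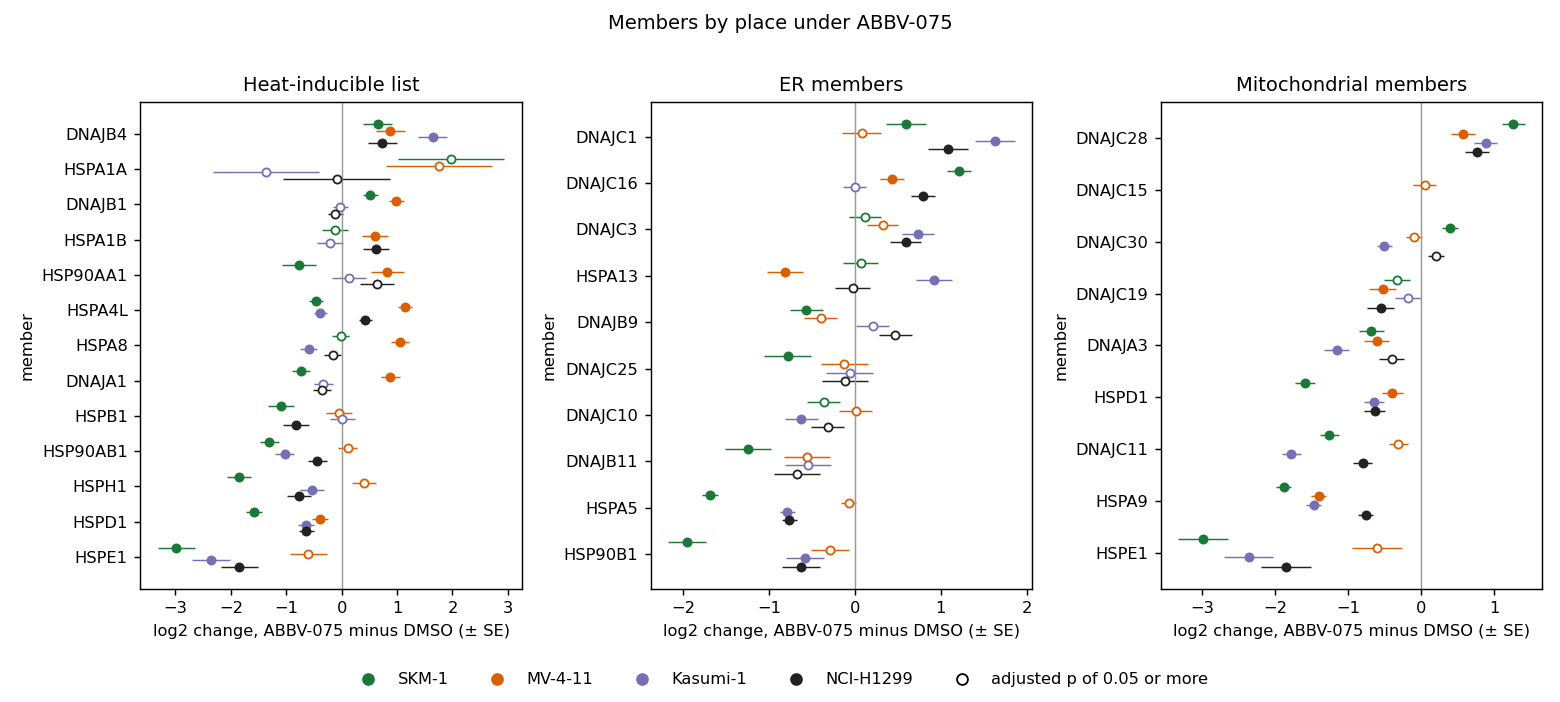
Points give the log2 change with ABBV-075 against DMSO and bars its standard error, by member and line, for the heat-inducible list, the ER members and the mitochondrial members; open points have a limma adjusted p of 0.05 or more. In MV-4-11 (orange) HSPA8, DNAJA1 and HSPA4L lie to the right of the other lines, and DNAJC28 is the mitochondrial member with positive values in all 4 lines.

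HSPA9 and HSPD1, chaperones of the mitochondrial matrix, fell in all 4 lines. HSPA9 (mortalin), the HSP70 that pulls proteins into the matrix, was at 250.1 and 289 FPKM in SKM-1 DMSO and 68.8 and 76.0 with ABBV-075 (-1.88 ± 0.10, limma adjusted p = 3.84e-10). In MV-4-11 it went from 201 and 204 to 77.1 and 75.5 (-1.40 ± 0.10, 2.36e-08), and in Kasumi-1 from 193 and 220.1 to 75.4 and 72.7 (-1.47 ± 0.10, 9.86e-09). NCI-H1299 showed a smaller fall, from 229.7 and 239 to 144 and 132 (-0.76 ± 0.10, 1.82e-05). Groups overlapped in none of the lines, and the 4 calls held without any 1 library. HSPA9 was also 1 of the members whose ABBV-075 response differed between the leukaemia mean and NCI-H1299, by -0.82 ± 0.12 (1.53e-04).

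HSPD1 and HSPE1, the chaperonin known as HSP60 and its lid HSP10, lie back to back and fell by unequal amounts. HSPE1 went from 694 and 735 FPKM to 112 and 172 in Kasumi-1 with ABBV-075 (-2.36 ± 0.34, limma adjusted p = 2.41e-05). In NCI-H1299 it went from 361 and 455 to 105 and 119 (-1.85 ± 0.34, 3.47e-04), and in SKM-1 from 262 and 734 to 51.1 and 58.5 (-2.98 ± 0.34, 1.69e-06). All 3 falls held without any 1 library, while MV-4-11 went from 139 and 131 to 86.2 and 91.5 without a call (-0.60 ± 0.34, 0.17). HSPD1 fell by less: from 725 and 759 to 429 and 528 in Kasumi-1 (-0.64 ± 0.14), from 612 and 633 to 391.7 and 409 in NCI-H1299 (-0.64 ± 0.14), from 572 and 762 to 204 and 236 in SKM-1 (-1.58 ± 0.14), and from 334 and 297 to 243 and 237 in MV-4-11 (-0.39 ± 0.14). The MV-4-11 call of HSPD1 was lost without any 1 library (adjusted p 0.051 to 0.203). The ratio of HSPE1 to HSPD1 was lower with ABBV-075 in every line, at 0.958 and 0.969 with DMSO against 0.260 and 0.326 in Kasumi-1, 0.590 and 0.719 against 0.268 and 0.292 in NCI-H1299, 0.458 and 0.963 against 0.250 and 0.248 in SKM-1, and 0.417 and 0.441 against 0.354 and 0.386 in MV-4-11. Groups did not overlap in any line, and the ratio was not tested.

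RefSeq gives HSPD1 (minus strand) 2 starts, 434 bases apart. From the one nearer to HSPE1 (plus strand), 104 bases separate the 2 genes, and this whole interval is printed on the plus strand, with an E-box (CACGTG, a sequence that MYC and related factors can bind) in capitals.
HSPE1 and HSPD1, chr2:197500275-197500378, plus strand: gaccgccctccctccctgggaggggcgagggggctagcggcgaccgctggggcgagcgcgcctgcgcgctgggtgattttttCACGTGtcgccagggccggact
E-boxes were found in 10 members (14.7%, against 8.78% of genes), among them HSPA9, HSPE1 and HSPD1. HSPE1, its readthrough HSPE1-MOB4 and HSPD1 were counted through the same E-box, so the 10 are not separate sites. The CCAAT box, a common promoter element, was in 28 members (41.2%, against 39.7% of genes). MYC itself fell with ABBV-075 in SKM-1 (-5.80), Kasumi-1 (-3.06) and MV-4-11 (-1.15) and was at -0.31 in NCI-H1299.

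Other mitochondrial members fell in some lines. DNAJA3, the mitochondrial J-domain partner of HSPA9, fell in Kasumi-1 from 14.8 and 12.4 FPKM to 6.47 and 4.71 (-1.15 ± 0.17, limma adjusted p = 3.60e-05), and also in SKM-1 (-0.68 ± 0.17) and MV-4-11 (-0.61 ± 0.17). The MV-4-11 call was lost without DMSO replicate 2 or ABBV-075 replicate 1 (up to 0.0737). DNAJC11, which is tied to the inner-membrane cristae, fell in Kasumi-1 from 32.1 and 27.9 to 9.19 and 7.02 (-1.77 ± 0.13, 1.44e-08), in SKM-1 (-1.26 ± 0.13) and in NCI-H1299 (-0.80 ± 0.13), and was at -0.31 in MV-4-11. DNAJC30, at low level, rose in SKM-1 (0.40) and fell in Kasumi-1 (-0.50). DNAJC28, annotated to mitochondria, rose in all 4 lines, also at low level: from 0.978 and 0.816 to 2.43 and 2.58 FPKM in Kasumi-1 (0.89 ± 0.16), and from 1.41 and 1.77 to 3.61 and 3.19 in NCI-H1299 (0.77 ± 0.16). It rose by 1.27 ± 0.16 in SKM-1 and 0.58 ± 0.16 in MV-4-11, the latter lost without DMSO replicate 2 or ABBV-075 replicate 1 (up to 0.0823). In the leukaemia lines DNAJC28 passed the expression minimum through treated libraries, so its rises there are not independent of the filter. Of the mitochondrial members tested, 5 of 8 fell in SKM-1, 4 of 9 in MV-4-11, 6 of 8 in Kasumi-1 and 5 of 8 in NCI-H1299, beside 29.2%, 22.1%, 32.6% and 26.5% of all genes tested. In the same order 2, 1, 1 and 1 rose, beside 32%, 20.3%, 24.7% and 20.6%.

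Among the remaining J-domain genes, DNAJC17 fell in all 4 lines. DNAJC17, a nuclear J-domain protein with an RNA-binding domain, went from 13.6 and 15.0 FPKM to 5.24 and 4.53 in SKM-1 (-1.38 ± 0.12, limma adjusted p = 9.66e-08). It went from 14.5 and 16.6 to 5.27 and 4.56 in MV-4-11 (-1.48) and from 15.7 and 15.3 to 6.18 and 5.36 in NCI-H1299 (-1.29). In Kasumi-1, where it was low, it went from 3.54 and 3.42 to 0.666 and 0.627 (-1.44), a change that the log2(FPKM + 1) scale understates at this low level. Groups overlapped in none of the lines and every call held without any 1 library. DNAJC7 fell in all 4 lines by -0.55 to -1.07, most in MV-4-11, from 143 and 129 to 64.7 and 63.9 (8.04e-07). DNAJC9, a histone chaperone with a J domain, fell in SKM-1 (-0.84), MV-4-11 (-0.93) and NCI-H1299 (-0.44), and by -0.23 in Kasumi-1, a call lost without either DMSO library or ABBV-075 replicate 1 (up to 0.194). HSPA14, a ribosome-bound HSP70, fell by -0.59 to -1.11. HSPBP1, an exchange factor of HSP70, fell in Kasumi-1 from 14.7 and 13.7 to 3.99 and 2.14 (-1.94 ± 0.21), and by less in MV-4-11 (-0.66), where the call was lost without DMSO replicate 2 or ABBV-075 replicate 1 (up to 0.165). DNAJC2, a ribosome-bound J-domain protein that works with HSPA14, fell in SKM-1 (-2.51 ± 0.38), but its DMSO libraries there were at 38.9 and 134 FPKM, and its Kasumi-1 call (-1.31 ± 0.38) was lost without ABBV-075 replicate 1 (0.0982). DNAJC12, a cytosolic J-domain protein that assists aromatic amino acid hydroxylases, was a Kasumi-1 gene by level, falling there from 49.0 and 58.05 to 20.8 and 28.2 (-1.11 ± 0.13), and it fell in SKM-1 and MV-4-11 from under 3 FPKM. In NCI-H1299 it was listed at 0 to 0.101 FPKM.

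In the mean of the leukaemia lines DNAJB2 (1.48) and DNAJB4 (1.06) had the highest changes of the J-domain genes tested there, while in NCI-H1299 DNAJC1 and DNAJC6 were higher than both. DNAJB2, which passes HSP70 clients to the proteasome, went from 8.62 and 6.36 FPKM to 27.7 and 21.2 in SKM-1 (1.59 ± 0.20, limma adjusted p = 5.01e-06). In MV-4-11 it went from 4.18 and 6.27 to 14.9 and 19.4 (1.55 ± 0.20, 1.28e-05), and in Kasumi-1 from 2.58 and 1.54 to 7.05 and 5.81 (1.30 ± 0.20, 4.70e-05). The leukaemia groups did not overlap and the calls held without any 1 library. In NCI-H1299 its change was 0.44 ± 0.20 (0.0806, and 0.0415 on rescaled values), from 12.5 and 12.2 to 17.9 and 16.4, and the response was larger in the leukaemia mean by 1.04 ± 0.23 (0.00497). DNAJB4, a close relative of DNAJB1, rose in Kasumi-1 from 8.52 and 8.93 to 22.3 and 38.7 (1.64 ± 0.26, 6.61e-05). Its smaller rises in SKM-1 (0.65), MV-4-11 (0.88) and NCI-H1299 (0.73) each lost their call without single libraries: SKM-1 DMSO replicate 1 (0.21) or ABBV-075 replicate 2, MV-4-11 DMSO replicate 2 or ABBV-075 replicate 2 (0.66 at the lowest), and any 1 library in NCI-H1299 (adjusted p 0.10 to 0.107). DNAJB5, another relative, rose in SKM-1 (1.26 ± 0.11). DNAJC4 was called in opposite directions, higher in SKM-1 (1.20 ± 0.23), from 8.93 and 4.46 to 18.8 and 13.5, and lower in NCI-H1299 (-0.85 ± 0.23), from 8.25 and 7.81 to 4.07 and 3.96. HSPB1, the small heat shock protein known as HSP27, fell in SKM-1 (-1.10 ± 0.23), from 143 and 99.6 to 66.6 and 46.0, and in NCI-H1299 (-0.83 ± 0.23), from 104 and 101 to 55.6 and 59.1, the latter at 0.0522 without ABBV-075 replicate 1.

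ABBV-744 at 200 nM changed fewer members. In SKM-1, 15 of 58 fell and 6 rose, beside 12.5% and 14.9% of all genes tested. In Kasumi-1, 15 of 55 fell and 4 rose, beside 15% and 8.69%, and on rescaled values 12 fell and 6 rose. In MV-4-11, 4 of 57 fell and 0 rose, beside 6.75% and 4.61%. At an unadjusted limma p under 0.05, 8 members were lower and 7 higher there. The share of all genes at that unadjusted threshold was not computed. In NCI-H1299, 3 of 58 fell and 1 rose, beside 3.95% and 1.40%. The leukaemia mean had 22 of 54 lower and 7 higher, beside 17.3% and 18.2%. The SKM-1 counts rested on single libraries: 28 fell and 13 rose without DMSO replicate 1, 8 fell and 1 rose without ABBV-744 replicate 1, and 3 rose without DMSO replicate 2. In Kasumi-1, 7 fell without ABBV-744 replicate 2, 8 without DMSO replicate 1 and 9 with 1 riser without DMSO replicate 2, and 2 rose without either ABBV-744 library. In NCI-H1299 none rose without any 1 library, and 0 fell without DMSO replicate 2 and 1 without each of the other 3. In the leukaemia mean 11 rose without SKM-1 DMSO replicate 1, and 4 without SKM-1 ABBV-744 replicate 1 or MV-4-11 DMSO replicate 2.

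DNAJC17 was the member that fell with ABBV-744 in all 4 lines, to 8.51 and 10.3 FPKM in SKM-1 (-0.56 ± 0.12, limma adjusted p = 0.00305), 10.0 and 10.5 in MV-4-11 (-0.55 ± 0.12, 0.00703), 2.14 and 1.79 in Kasumi-1 (-0.60 ± 0.12, 0.00212), and 9.70 and 11.5 in NCI-H1299 (-0.51 ± 0.12, 0.0192). Its values lay between the DMSO and ABBV-075 libraries in every line. Apart from Kasumi-1, the calls were lost without SKM-1 ABBV-744 replicate 1 (0.0539), without MV-4-11 DMSO replicate 2 or ABBV-744 replicate 1 (up to 0.0989), and without either NCI-H1299 DMSO library or ABBV-744 replicate 1 (up to 0.242). HSPA9 fell in the leukaemia lines, to 171 and 165 FPKM in SKM-1 (-0.67 ± 0.10), 127 and 125 in MV-4-11 (-0.69 ± 0.10) and 123 and 121 in Kasumi-1 (-0.75 ± 0.10), and these calls held without any 1 library. In NCI-H1299 HSPA9 was at 205 and 209 (-0.18, 95% interval -0.39 to 0.04). HSPA5 fell in SKM-1 to 159.9 and 160.2 (-1.29 ± 0.09, 7.27e-08) and in Kasumi-1 to 290.2 and 256 (-0.44 ± 0.09, 0.00225). HSP90B1 fell in SKM-1 to 96.5 and 85.1 (-1.68 ± 0.22, 5.61e-05). HSP90AB1 fell in SKM-1 (-0.86 ± 0.17) and Kasumi-1 (-0.67 ± 0.17), the latter at 0.0505 to 0.0597 without any 1 library. HSPE1 was not called in any line, with changes between -0.96 and -0.58, and in SKM-1 it was called (-1.32, 7.16e-04) without DMSO replicate 1. No gene of the heat-inducible list was called in MV-4-11 or NCI-H1299 with ABBV-744, and HSPA8 there changed by 0.39 (95% interval 0.06 to 0.72, adjusted p = 0.135) and 0.02.

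Tested directly against each other at these doses, the compounds differed at some members, with several of the counts close to the share over all genes. ABBV-744 libraries were higher than ABBV-075 libraries at 16 of 58 members in SKM-1 and lower at 11, beside 22.7% and 21% of all genes. In MV-4-11, 6 of 57 were higher and 10 lower, beside 12.5% and 9.44%. In Kasumi-1, 11 of 55 were higher and 7 lower, beside 21.2% and 16.5%. In NCI-H1299, 16 of 58 were higher and 8 lower, beside 18.6% and 16%. HSPA9 was higher with ABBV-744 in all 4 lines, by 0.58 to 1.21, and DNAJC17 by 0.77 to 0.93. HSPE1 was higher in SKM-1 (2.40 ± 0.34), Kasumi-1 (1.40 ± 0.34) and NCI-H1299 (0.98 ± 0.34), where it was at 235 and 209 FPKM with ABBV-744. In MV-4-11 HSPE1 did not separate the compounds (-0.01, 95% interval -0.73 to 0.71), whereas HSPA8 (-0.66 ± 0.16), DNAJB1 (-0.74 ± 0.13) and HSPA4L (-0.75 ± 0.12) were lower with ABBV-744. HSP90B1 was not called in any line, with intervals reaching from -0.51 to 0.80. Single libraries moved these counts by more than 1.5 times: 7 were lower in SKM-1 without either ABBV-075 library or ABBV-744 replicate 2, 6 and 5 in MV-4-11 without ABBV-075 replicate 1 and ABBV-744 replicate 2, and 3 and 1 in Kasumi-1 without ABBV-075 replicate 2 and ABBV-744 replicate 2, the last also giving 7 higher. In NCI-H1299, 7 to 9 were higher and 4 to 5 lower without any 1 library.

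The difference in ABBV-075 response was also tested between lines. SKM-1 and MV-4-11 differed at 26 of 55 members, beside 29.2% of all genes tested, SKM-1 and Kasumi-1 at 20 of 54, beside 30.9%, and MV-4-11 and Kasumi-1 at 17 of 54, beside 27.3%. The leukaemia mean differed from NCI-H1299 at 6 of 52 members with ABBV-075, beside 18.5%, and at 0 of 52 with ABBV-744, beside 0.57%. With ABBV-744, 6 members had an unadjusted p under 0.05 in limma, and the share of all genes at that threshold was not computed. The 6 called with ABBV-075 were HSPA9 and DNAJB9, lower in leukaemia, and DNAJB1, DNAJB2, DNAJC4 and DNAJC14, higher. Of these, DNAJB1 (up to 0.0548), DNAJC14 (up to 0.123) and DNAJB9 (up to 0.136) lost their calls without either NCI-H1299 DMSO library or, among others, NCI-H1299 ABBV-075 replicate 1 for DNAJB1 and DNAJB9 and replicate 2 for DNAJC14 and DNAJB9; DNAJB9 also lost it without 5 of the leukaemia libraries. HSPA8 separated MV-4-11 from Kasumi-1 by 1.65 (limma adjusted p = 9.05e-05) and the summed HSPA1A and HSPA1B by 1.5 ± 0.36 (0.00689). The counts depended on libraries: between SKM-1 and Kasumi-1 they were 36 without SKM-1 DMSO replicate 1, 13 without SKM-1 DMSO replicate 2, 12 without SKM-1 ABBV-075 replicate 1 or Kasumi-1 ABBV-075 replicate 2, and 11 without Kasumi-1 DMSO replicate 1. Between leukaemia and NCI-H1299 they were 16 and 11 without SKM-1 DMSO replicates 1 and 2, and 3 without either NCI-H1299 DMSO library. With ABBV-744 the 0 became 7 and 2 without SKM-1 DMSO replicates 1 and 2.

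Genes that work with the members were followed under ABBV-075 in lists of partners. HSF1 was called only in Kasumi-1 (-0.87), and HSF2, a related factor, rose there (0.66). HSF4 rose in SKM-1 (1.07) and MV-4-11 (1.18), and HSBP1, a binding partner of HSF1, fell in SKM-1 (-0.48) and Kasumi-1 (-0.41). BAG3, an exchange factor of HSP70 that HSF1 is known to induce, rose in SKM-1 (0.77), MV-4-11 (1.04) and NCI-H1299 (0.40). STUB1, the ubiquitin ligase of HSP70 clients, rose in the same 3 lines (1.30, 0.67 and 1.32). The counts of these lists stand beside 32%, 20.3%, 24.7% and 20.6% of all genes tested that rose in SKM-1, MV-4-11, Kasumi-1 and NCI-H1299, and 29.2%, 22.1%, 32.6% and 26.5% that fell. Of 15 HSP70 cochaperones, 3 rose and 3 fell in both SKM-1 and MV-4-11, 0 rose and 8 fell in Kasumi-1, and 2 rose and 6 fell in NCI-H1299. Of 16 HSP90 cochaperones, 3 rose and 9 fell in SKM-1, 3 and 1 in MV-4-11, 3 and 7 in Kasumi-1, and 1 and 5 in NCI-H1299, with FKBP4, which couples HSP90 to steroid receptors, falling in SKM-1 (-2.09), Kasumi-1 (-1.5) and NCI-H1299 (-1.03). The cytosolic chaperonin TRiC and prefoldin had 10, 4, 8 and 7 of 14 genes lower in SKM-1, MV-4-11, Kasumi-1 and NCI-H1299, with 2, 0, 0 and 0 higher. Of 16 ER stress genes, 9, 4, 8 and 7 fell and 5, 0, 3 and 4 rose in the same order, and CALR, the ER lectin calreticulin, fell in SKM-1 (-2.80), Kasumi-1 (-1.18) and NCI-H1299 (-0.81) and was at 0.11 in MV-4-11. GRPEL1, the exchange factor of HSPA9, fell in all 4 lines (-1.0, -0.46, -0.82 and -0.96), as did TOMM40, the import pore (-2.48, -0.78, -2.84 and -1.25), and the matrix proteases LONP1 (-0.73 to -1.71) and CLPP (-1.56 to -2.07). TRAP1, the mitochondrial HSP90, fell in the leukaemia lines (-1.63, -0.53 and -1.56) and was at -0.39 in NCI-H1299. Of 10 mitochondrial import and protease genes, 7, 5, 4 and 4 fell in SKM-1, MV-4-11, Kasumi-1 and NCI-H1299, and 1, 1, 0 and 2 rose. HYOU1, an ER exchange factor, fell in SKM-1 (-0.54) and Kasumi-1 (-0.65).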

How the data were processed

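RNA from 24 libraries of 4 cell lines was analysed as 1 table of FPKM values per gene, deposited by the authors. The submitters' processing notes name DESeq2. For aligner, build and annotation: not given in the sources used here. FPKM as deposited by the authors were transformed to log2(FPKM + 1). The 12 group means were fitted with limma 3.58.1 in R 4.3.3 (eBayes with trend and robust, 12 residual degrees of freedom), for genes at 1 FPKM or more in at least 2 libraries of every line compared, with Benjamini-Hochberg adjustment within each of 20 comparisons and calls under 0.05. All tests were two-sided.

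FPKM sums ran from 543426 to 719215 per library. Read depth is unknown: low values fell on whole-read steps that gave a relative depth of replicate 2 to replicate 1 between 0.609 and 1.31, up to a factor of 2 that the steps do not settle, and no counts were recovered. Sums and ratios were computed with Python 3.11.15, and motifs searched in RefSeq promoters (GRCh38.p14), where 76 of 77 members matched a RefSeq symbol and 68 had a promoter. All columns of the table were mapped to samples by their labels. The model was tested on simulated data. The alternatives were a pseudocount of 0.1 FPKM, a minimum of 5 FPKM or none, values rescaled by median-of-ratios factors, a fit of only the lines compared, plain eBayes, each library left out, and the summed HSPA1A and HSPA1B. Members given per library were a list of 19 chaperones, the 3 largest rises and falls among called members at 5 FPKM or more for each compound and line, and the 3 largest DMSO differences in each direction; the members and lists were chosen with earlier results of these data known. The planned grouping by protein end letters was not made.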

Additional observations from a re-analysis of the deposited data

Results flagged for a closer look

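The ABBV-075 response differed between groups of lines at some members, by a limma test of the difference itself. For the leukaemia mean against NCI-H1299 this was 6 of 52 members tested, beside 18.5% of all genes tested. For SKM-1 it was 26 of 55 against MV-4-11, beside 29.2%, and 20 of 54 against Kasumi-1, beside 30.9%. For MV-4-11 against Kasumi-1 it was 17 of 54, beside 27.3%.

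Some single members changed in opposite directions in the lines compared. SKM-1 and MV-4-11 differed at HSP90AA1 by -1.60 (changes of -0.77 and 0.83, limma adjusted p = 0.011), at HSPA4L by -1.60 (-0.46 and 1.14, 7.75e-06) and at DNAJA1 by -1.61 (-0.73 and 0.88, 1.16e-04). The HSP90AA1 value includes SKM-1 DMSO replicate 2, without which its SKM-1 change was -0.04. The difference was called without any 1 library for each member named here, but the call within a line was not always: it was lost for HSP90AA1 in SKM-1 and MV-4-11, HSPA4L in SKM-1 and Kasumi-1, HSPA8 in Kasumi-1, HSPA13 in MV-4-11, and DNAJB12 in Kasumi-1 (adjusted p up to 0.362 without DMSO replicate 1 or ABBV-075 replicate 2). SKM-1 and Kasumi-1 differed at DNAJB12, an ER membrane J-domain gene, by 1.04 (0.62 and -0.43, 0.00278) and at DNAJC30, a mitochondrial one, by 0.90 (0.40 and -0.50, 5.87e-04). MV-4-11 and Kasumi-1 differed at HSPA8 by 1.65 (1.05 and -0.59, 9.05e-05), at HSPA13 by -1.73 (-0.81 and 0.92, 6.25e-04) and at HSPA4L by 1.52 (1.14 and -0.39, 1.92e-05). The leukaemia mean and NCI-H1299 differed at DNAJC4 by 1.19 (0.35 and -0.85, limma adjusted p = 0.00567). That mean is of 1.20 in SKM-1 and of 0.05 in MV-4-11 and -0.22 in Kasumi-1, neither of these called. The DNAJC4 call in the leukaemia mean did not hold without every single library.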

How the results depend on the processing

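The HSPA8 change with ABBV-075 in SKM-1 turned to 0.30 without SKM-1 DMSO replicate 1 and ranged from -0.33 to 0.30 over the libraries left out. No other member followed against DMSO changed direction with a call in the main fit or the alternative. Changes of direction between uncalled values were not counted. Uncalled members outside those given per library were not followed. Fitting only the lines compared moved many counts, and the cause was not tested. Such a fit takes the spread of each gene from those lines only, where the main fit shares it over all 4. With ABBV-075 it gave 9 higher and 16 lower in SKM-1 and 19 higher in NCI-H1299. With ABBV-744 it gave 0 and 2 in SKM-1, 2 higher and 7 lower in MV-4-11, 2 and 4 in Kasumi-1, and 4 and 12 in NCI-H1299. For ABBV-744 against ABBV-075 it gave 6 and 5 in SKM-1, 6 and 1 in Kasumi-1, and 28 and 18 in NCI-H1299. Response differences numbered 16 for SKM-1 against MV-4-11 and 3 for SKM-1 against Kasumi-1. A minimum of 5 FPKM, which tests fewer genes, gave 9 higher with ABBV-075 in SKM-1 and 6 in NCI-H1299, 1 lower with ABBV-744 in NCI-H1299, and, for ABBV-744 against ABBV-075, 6 lower in SKM-1 and 4 in NCI-H1299. No minimum gave 14 higher in leukaemia DMSO libraries, and 14 (ABBV-075) and 5 (ABBV-744) response differences between leukaemia and NCI-H1299. A pseudocount of 0.1 with ABBV-744 gave 1 higher in MV-4-11, and 0 higher and 0 lower in NCI-H1299. Plain eBayes gave 2 higher with ABBV-744 in MV-4-11 and 1 response difference between leukaemia and NCI-H1299.

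Leaving out 1 library gave these ranges of counts. ABBV-075: MV-4-11 9 to 12 higher; Kasumi-1 6 to 12 higher and 15 to 21 lower; NCI-H1299 4 to 7 higher. ABBV-744: SKM-1 1 to 13 higher and 8 to 28 lower, Kasumi-1 1 to 3 and 7 to 10, NCI-H1299 0 to 0 and 0 to 1, leukaemia mean 4 to 11 higher. ABBV-744 against ABBV-075: SKM-1 7 to 10 lower, MV-4-11 5 to 10 lower, Kasumi-1 7 to 11 higher and 1 to 7 lower, NCI-H1299 7 to 9 and 4 to 5. Response differences were 3 to 16 and 0 to 7 for leukaemia against NCI-H1299 (ABBV-075 and ABBV-744) and 11 to 36 for SKM-1 against Kasumi-1. Rescaling left 627 of the values of single genes on their side of the threshold, with 30 weaker and 13 stronger. These values include some partner genes and the controls MYC and HEXIM1 beside the members. Summing HSPA1A and HSPA1B was chosen after seeing the data. No paired analysis was possible because replicate numbers follow accession order and pair nothing. FPKM without counts give no interval per library, and 2 libraries a group limit what can be called.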

Other observations

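Some members below the expression minimum in a line were higher there in both ABBV-075 libraries than in both DMSO libraries; such values were not tested. HSPA12A, a distant HSP70 relative that was called in SKM-1 (0.73) and NCI-H1299 (0.62), was at 0.0206 and 0.0216 FPKM in MV-4-11 DMSO and 0.457 and 0.432 with ABBV-075, and was listed at 0 in every Kasumi-1 library. DNAJC6, the brain cochaperone of clathrin uncoating called auxilin, was called in SKM-1 (1.01) and NCI-H1299 (1.05), and stood at 0.0415 and 0.0821 FPKM in Kasumi-1 DMSO against 0.474 and 0.415 with ABBV-075. DNAJB13, known from sperm flagella, was at 0.0713 and 0.0562 FPKM in SKM-1 DMSO and 1.19 and 0.972 with ABBV-075. HSPA2, the testis-enriched HSP70, was tested in MV-4-11 and NCI-H1299. It rose in MV-4-11 (0.85), from 0.757 and 0.985 to 2.32 and 2.40 FPKM. In NCI-H1299 it fell (-0.63), from 4.85 and 4.60 to 2.69 and 2.70. Its MV-4-11 DMSO libraries were under the 1 FPKM minimum, as was the SKM-1 DMSO mean of HSPA12A (0.67). Both genes were tested in those lines through treated libraries, so these rises are not independent of the filter. These genes were chosen after their values were seen.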
